A study of Mus musculus with 48 samples.

Results

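Wnt ligands, their receptors and co-receptors, their secreted antagonists and the transcriptional readouts *Axin2* and *Lef1* were examined in the stromal cells of mouse lymph nodes (LNs). Members were taken from the array annotation by gene symbol: every *Wnt*, *Fzd*, *Sfrp*, *Dkk* and *Rspo* symbol followed by a digit, plus *Lrp5*, *Lrp6*, *Frzb*, *Wif1*, *Axin2* and *Lef1*. This gave 48 of 19057 annotated genes, among them *Fzd10os*, a transcript named for lying opposite *Fzd10* that encodes no receptor. By role, the 48 genes were 19 Wnt ligands, 4 R-spondins, 10 Frizzled receptors, *Fzd10os*, 2 co-receptors, 6 antagonists that bind Wnt itself, 4 genes of the Dkk family and 2 transcriptional readouts. Of these, 36 had at least 1 group mean above the background level of 5.62 (log2) and could be tested.

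Expression was read on Illumina bead arrays, where each bead carries a probe for one gene and its fluorescence reports bound RNA. The 4 sorted populations of skin-draining LNs were compared in naive wild-type mice and in mice injected intravenously with Eμ-*Myc* lymphoma B cells, which are tumor cells of a transgenic line that overexpresses *Myc* in B cells: fibroblastic reticular cells (FRCs, CD31-gp38+), blood endothelial cells (BECs, CD31+gp38-), lymphatic endothelial cells (LECs, CD31+gp38+) and double-negative cells (DN cells, CD31-gp38-). Tumor-bearing mice had received 200000 to 400000 cells and carried an average tumor load of 4% to 10% of LN lymphocytes, and the labels give neither strain nor age. Each of the 8 groups held 3 replicates of 80 ng RNA, combined from 4 to 6 sorts, and each replicate was read on 2 array strips that were averaged here. Leukocytes had been depleted and the sort excluded CD45+, Ter119+ and dead cells. The replicates are pools labeled as biological, so p-values measure the spread between pools and not between mice. All arrays of a cell type lay on 1 slide, so slide and cell type cannot be told apart, and naive and tumor replicates took separate places on it, so place and tumor state cannot be told apart either. Strips held 863780 to 1044181 beads, and 3 replicates per group limit the precision.

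Wnt proteins are secreted lipid-modified ligands that bind Frizzled receptors together with the co-receptors LRP5 or LRP6. In the canonical branch this stabilizes β-catenin, which enters the nucleus and acts with TCF/LEF factors on target genes. *Axin2*, which encodes a scaffold of the complex that degrades β-catenin, is a widely used direct target and a negative feedback regulator. R-spondins amplify the signal by keeping Frizzled receptors on the cell surface. Secreted Frizzled-related proteins, including *Frzb*, and *Wif1* bind Wnt outside the cell, whereas DKK1 blocks the co-receptors. Fibroblasts are a known source of Wnt ligands and R-spondins in many tissues, and the receptor encoded by *Fzd4* is known for its part in blood vessel development.

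Naive FRCs, LECs and BECs differed in their gate markers in the direction of the sort, whereas some BEC and DN libraries carried markers that their gate excludes. *Pdpn*, which encodes gp38, read 14.31 to 14.49 (log2) in naive FRCs, 14.07 to 14.39 in naive LECs and 8.58 to 9.18 in naive BECs. In DN cells *Pdpn* was 13.43 in naive replicate 2 and 12.38 in tumor replicate 3, against 9.75 to 11.10 in the other 4. *Pecam1*, which encodes CD31, read 5.74 to 9.15 in naive and 10.57 to 11.11 in tumor DN cells, although that gate excludes CD31+ cells (difference 3.26, limma adjusted p = 0.00399). In tumor BECs, which are gated as gp38-, *Pdpn* read 8.12, 11.51 and 10.20. The FRC markers *Pdgfra* and *Lum* were likewise higher in tumor BEC replicates 2 and 3 (10.39 and 9.16, and 9.17 and 9.89) than in any naive BEC replicate (up to 8.19 and 7.85). The sum over a list of 10 FRC markers did not rise, at 15.73, 15.02 and 15.86 in naive and 13.85, 15.86 and 15.6 in tumor BECs. The summed signal of 10 FRC markers, all of which were above background in every group, was also highest in these 2 DN replicates (16.93 and 16.39, against 14.94 to 15.36). Results on DN cells are therefore given with and without them where that matters. The summed signal of 7 tested B cell markers was 9.26 to 10.12 in naive and 10.05 to 13.66 in tumor BECs, and 8.76 to 9.29 in naive and 11.01 to 14.51 in tumor DN cells. It lay between 8.84 and 8.93 in naive and 8.76 and 10.12 in tumor FRCs, and between 9.72 and 9.99 in naive and 9.73 and 10.91 in tumor LECs. Naive LECs read higher than naive BECs for *Lum* (8.95 to 10.15 against 6.13 to 7.85, limma adjusted p = 0.0105). The same held for *Ccl19* (10.42 to 11.06 against 7.99 to 8.26, limma adjusted p = 0.036). *Pdgfrb* ran the other way (means 6.69 against 7.85), and the FRC marker sums overlapped (15.75 to 15.93 in naive LECs). The part of FRC RNA in the LEC levels of the Wnt genes was not tested. In bulk RNA of this kind, fewer cells of a type and less RNA per cell cannot be told apart.

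In naive mice, more Wnt genes peaked in FRCs than in any other cell type, and BECs had the fewest above background. Of the 36 tested members, 21 had their highest naive mean in FRCs, 7 in DN cells, 4 in LECs and 4 in BECs. By the test, 13 of the 21 exceeded the second cell type, as did 4 of those in DN cells and 1 each in LECs and BECs. In FRCs and in DN cells 30 members each had a naive mean above the background level, in LECs 21 and in BECs 16. For these counts no share of all genes is given here. Comparing naive FRCs with naive BECs, 24 members were higher and 4 lower in FRCs by limma at an adjusted p under 0.05, which is 77.8% of those tested against 41.2% of all 13119 genes (20.7% higher and 20.6% lower). The median difference of the members was 1.52 on the log2 scale, and that of all genes was -0.03. Against LECs, 18 were higher and 1 lower in FRCs (52.8% of members, against 33.8% of all genes, 16% higher and 17.8% lower), and against DN cells 15 were higher and 5 lower (55.6%, against 38.7%, 18.7% higher and 20.1% lower). BECs were the low side against LECs, with 1 member higher and 13 lower (38.9%, against 22.3%, 10.2% higher and 12.1% lower), and against DN cells, with 2 higher and 17 lower (52.8%, against 52.3%, 25% higher and 27.3% lower, so near the background in number). LECs and DN cells split evenly, with 7 higher and 7 lower (38.9%, against 45.3%, 22.5% higher and 22.8% lower). The tested members *Dkk1*, *Frzb* and *Lef1* passed in none of the 6 comparisons, and each of the other 33 passed in at least 1. *Wnt7b*, *Fzd9* and *Sfrp5* could be tested only through DN means, and *Sfrp4*, *Rspo1* and *Wnt9b* only through FRC means. Their higher calls in those cell types, and their part in these counts, are not independent of that selection. Markers of other cells differed between the naive populations as well. The summed signal of 5 tested epithelial markers was 15.05 to 15.37 in FRCs, 15.30 to 15.46 in DN cells, 13.02 to 13.83 in LECs and 9.62 to 12.67 in BECs. Naive means above background were found for all 5 in FRCs and LECs and for 4 in BECs and DN cells, and *Krt14*, a keratin of basal epithelium, was 97.6-fold higher in FRCs than in BECs (limma adjusted p = 7.62e-07). The sum of 3 tested Schwann cell markers was 13.60 to 14.18 in DN cells, 11.69 to 12.12 in FRCs, 10.86 to 11.48 in LECs and 7.57 to 10.16 in BECs. The part of epithelial and Schwann cell RNA in the naive differences of the Wnt genes, *Wnt4* and *Wnt7b* in DN cells included, was not tested.

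**Figure D1:**
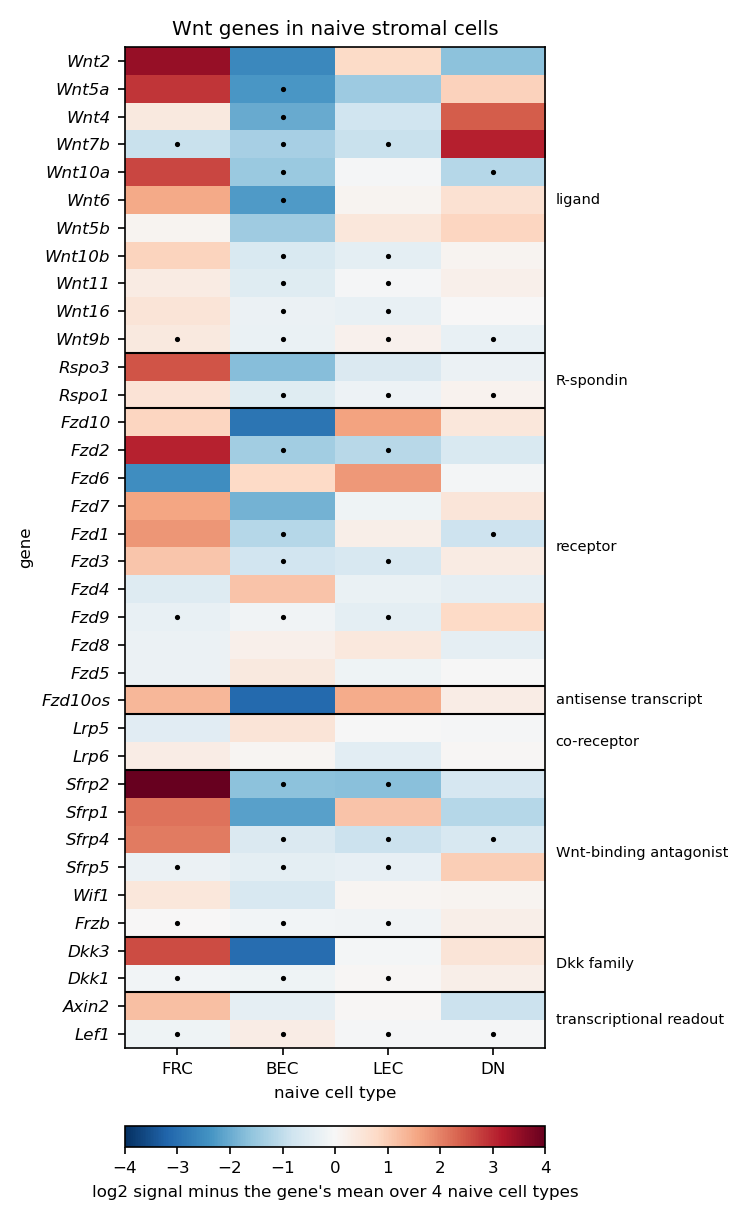
Mean signal of the 36 tested Wnt genes in the 4 naive cell types, each shown as the log2 difference from that gene's own mean over the 4 cell types (color scale, 3 replicates per cell type). Genes are grouped by role, black dots mark means at or below the background level, and the FRC column holds the highest value for 21 genes.

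Among the ligands, the 4 with the widest range of naive levels were *Wnt2*, *Wnt5a*, *Wnt4* and *Wnt7b*. *Wnt2*, a canonical ligand, read 11.92, 11.99 and 11.73 in naive FRCs, 8.99, 9.23 and 9.26 in LECs, 7.52, 7.22 and 5.54 in DN cells and 6.27, 5.84 and 5.33 in BECs. The FRC and LEC replicates each stood apart from all others, and DN cells and BECs did not differ beyond their spread (limma adjusted p = 0.14). Naive FRCs exceeded naive LECs 6.58-fold (difference 2.72, SE 0.53 on the log2 scale, limma adjusted p = 0.000394). *Wnt5a*, known mainly for β-catenin-independent signaling, was 10.52 ± 0.2 in FRCs (SD, n = 3), 6.19 ± 0.45 in LECs and not above background in any naive BEC replicate. Its DN replicates were 7.51, 10.77 and 7.46. The high one is the replicate with high FRC markers, and it lay in the range of FRCs or above it. The difference between FRCs and BECs was at least 29.9-fold (limma adjusted p = 3.71e-07).

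The other 2 ligands were highest in DN cells. *Wnt7b*, a ligand known from epithelia and from vascular development, read 9.09, 10.46 and 9.0 in naive DN cells, whereas naive FRCs reached 6.02, LECs 5.96 and BECs 5.40 at most. FRCs minus DN cells was -3.99 (SE 0.32, limma adjusted p = 3.71e-08), with 1 of 3 FRC replicates above background. DN cells exceeded BECs at least 14.9-fold, and FRCs, LECs and BECs did not differ among themselves beyond their spread. *Wnt4* read 10.18, 10.35 and 9.66 in DN cells, 7.72, 7.92 and 8.39 in FRCs, 7.69, 6.82 and 5.95 in LECs and 5.26, 6.14 and 5.42 in BECs. Every neighboring step of this order passed the test, with DN cells above FRCs 4.14-fold (limma adjusted p = 0.000418). DN naive replicate 2, which carried high FRC markers, was the highest of its group for both genes.

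*Rspo3* was 10.62, 10.65 and 10.43 in naive FRCs, 7.15 to 7.80 in LECs and 6.09 to 6.54 in BECs. In DN cells it was 6.58 and 6.74 in replicates 1 and 3 and 10.14 in replicate 2, which again is the one with high FRC markers. FRCs exceeded LECs 8.44-fold (limma adjusted p = 0.00415), and LECs, DN cells and BECs did not differ from each other beyond a spread that the single DN replicate widened (SE 0.78). *Rspo1* reached 5.74 to 6.27 in FRCs and was below background in every naive BEC and LEC replicate. *Rspo2* and *Rspo4* were above background in no group.

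The Frizzled receptors differed in the cell type where they were highest. *Fzd2* was an FRC receptor, at 9.63, 9.76 and 9.17 in naive FRCs and at most 6.59 in the other naive cell types. FRCs exceeded DN cells 12.8-fold (limma adjusted p = 3.03e-07) and BECs, none of whose replicates was above background, at least 15-fold. *Fzd6* ran the other way, at 10.73 to 10.90 in LECs, 9.61 to 10.14 in BECs, 8.98 to 9.13 in DN cells and 6.49 to 6.74 in FRCs, with no overlap between neighbors. LECs exceeded FRCs 18.5-fold (limma adjusted p = 5.56e-10), and every step of the order passed the test. *Fzd7* followed the order FRCs, DN cells, LECs and BECs, with means of 11.24, 10.15, 9.49 and 7.77, where DN cells and LECs did not differ beyond their spread (limma adjusted p = 0.113). *Fzd4*, named here after its values were seen, was the only member that BECs held above the second cell type by the test, at 7.58 ± 0.59 against 6.18 ± 0.19 in LECs (SD, n = 3, 2.64-fold, limma adjusted p = 0.00116).

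*Fzd10* separated BECs from the rest. It read 6.09, 6.24 and 5.45 in naive BECs, against 10.32 to 10.68 in LECs, 9.34 to 10.11 in FRCs and 8.15 to 10.89 in DN cells, and the last 3 did not differ in neighboring steps (limma adjusted p = 0.34 and 0.593). The antisense transcript *Fzd10os* has an annotated span on chromosome 5 (GRCm38.p6) that lies 418 bases from the annotated start of *Fzd10*. It read 5.44 to 6.11 in naive BECs, 10.12 to 10.61 in LECs, 10.09 to 10.30 in FRCs and 8.06 to 10.72 in DN cells. The 2 genes thus gave the same order by separate probes, and their deviations from the group means over 24 replicates correlated at r = 0.83, a description over arrays that both probes share. The low BEC level and the high reading of DN naive replicate 2 were common to both.

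**Figure D2:**
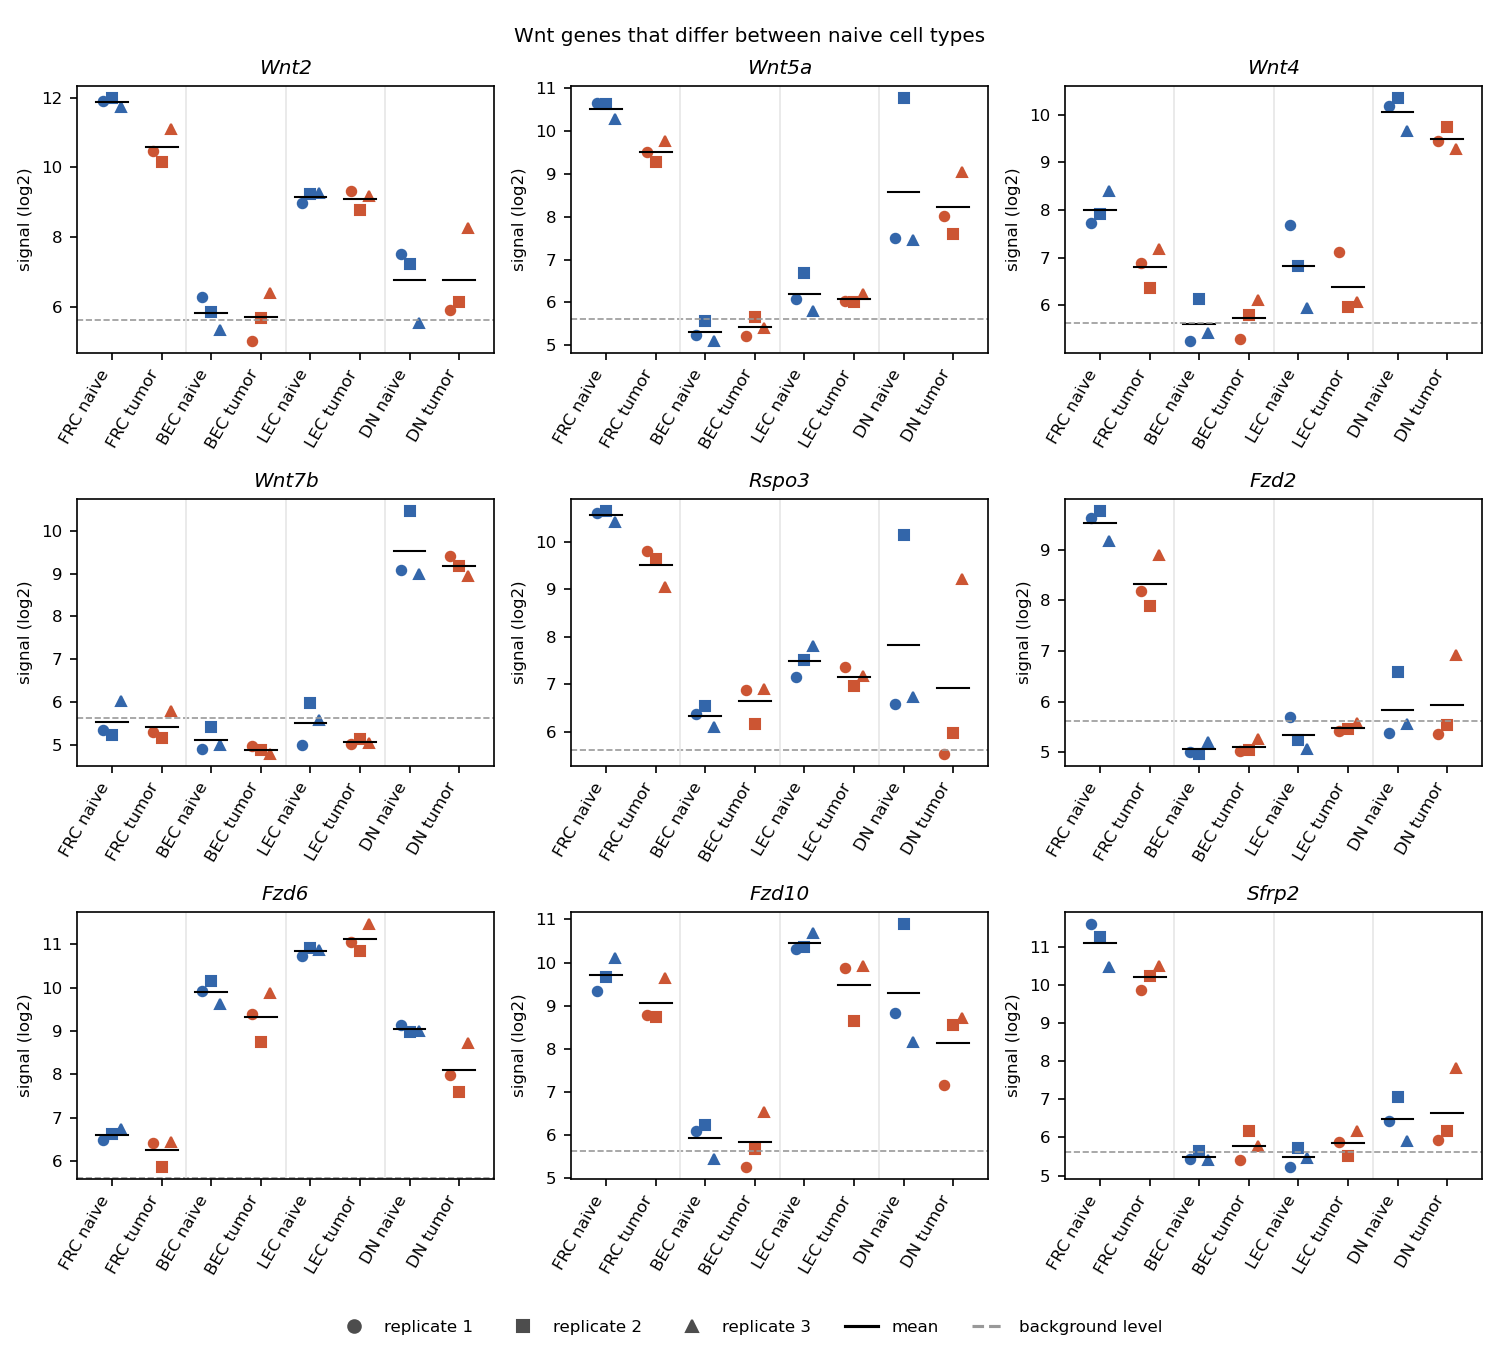
Log2 signal of 9 Wnt genes in each replicate of the 8 groups (blue naive, orange-red tumor, black line the mean of 3 replicates, dashed line the background level of 5.62). *Wnt2*, *Wnt5a*, *Rspo3*, *Fzd2* and *Sfrp2* peak in FRCs, *Wnt4* and *Wnt7b* in DN cells and *Fzd6* in LECs, while *Fzd10* is low in BECs, and DN naive replicate 2 (blue square) lies high for *Wnt5a* and *Rspo3*.

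The co-receptors differed little. *Lrp5* was 8.62 ± 0.3 in naive BECs and 7.67 ± 0.23 in naive FRCs (SD, n = 3), a 1.94-fold difference (limma adjusted p = 0.00523), and LECs and DN cells lay between. *Lrp6* differed only between FRCs and LECs, by 0.73 on the log2 scale (SE 0.26, limma adjusted p = 0.0353).

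Most antagonists were highest in FRCs. *Sfrp2* read 11.59, 11.26 and 10.47 in naive FRCs, 6.44, 7.06 and 5.92 in DN cells and at most 5.73 in BECs and LECs, where only 1 replicate each exceeded background. FRCs exceeded DN cells 24.8-fold (difference 4.63, SE 0.4, limma adjusted p = 8.45e-08). *Sfrp1* was shared by FRCs (12.12 to 12.36) and LECs (11.14 to 11.35), whose difference of 1.04 did not pass the test (limma adjusted p = 0.216), and was lower in DN cells and BECs. *Sfrp4* was above background in FRCs alone, at 8.14, 7.81 and 7.34 in the naive group, which is at least 4.43-fold above each other naive cell type. *Sfrp5* was highest in DN cells, at 7.31, 6.22 and 6.90 in naive DN cells and at most 5.74 in the other naive cell types, and DN cells exceeded FRCs (limma adjusted p = 0.00123), of which 2 of 3 replicates were above background. *Dkk3*, a divergent Dkk family member that does not act like DKK1 on the co-receptors, was 12.61 ± 0.31 in FRCs and 6.94 ± 0.98 in BECs (SD, n = 3), a 50.7-fold difference (limma adjusted p = 2.61e-08) that a second probe gave with the same size. *Dkk2* and *Dkk4* were above background in no group.

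*Axin2* was also highest in naive FRCs, at 10.01, 9.93 and 9.46, against 8.49 to 8.77 in LECs and 8.11 to 8.45 in BECs. FRCs exceeded BECs 2.96-fold (difference 1.57, SE 0.43, limma adjusted p = 0.00615) and LECs 2.2-fold (limma adjusted p = 0.0487), while BECs and LECs did not differ beyond their spread. DN replicates 1 and 3 were lowest, at 6.91 and 6.98, and replicate 2 read 9.30. *Lef1* was below background in every naive replicate. Further ligands below background in all 8 groups were *Wnt1*, *Wnt2b*, *Wnt3*, *Wnt3a*, *Wnt7a*, *Wnt8a*, *Wnt8b* and *Wnt9a*, so a change in them was not detectable on these arrays.

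Lymphoma moved few members past the threshold within a single cell type. Comparing tumor with naive FRCs, 1 of 36 members was higher and 3 were lower at a limma adjusted p under 0.05, which is 11.1% against 10.5% of all genes (6.4% higher and 4.12% lower). The lower ones include *Rspo1* and *Wnt9b*, which could be tested only because of their naive FRC mean. In BECs 1 was lower (2.78%, against 5.08% in both directions and 1.49% lower), in DN cells 2 were lower (5.56%, against 7.39% and 2.61%), and in LECs no member passed, against 0.922% of all genes. At an unadjusted limma p under 0.05, 4 members differed in LECs, and the methods' t-test, unadjusted, also gave 4 there, whereas none passed its adjusted form in any cell type. With both directions counted together, the limma shares were close to or below those of all genes. Lower calls alone had a larger share than in all genes in FRCs (3 of 36, against 4.12%). The same held in BECs (2.78%, against 1.49%) and DN cells (5.56%, against 2.61%), on 1 and 2 members. Of the 3 lower calls in FRCs, only *Fzd2* did not enter through its naive FRC mean alone. The larger share in FRCs is therefore not independent of the filter. The median change of the members was -0.23 in FRCs, -0.03 in BECs, -0.17 in LECs and -0.45 in DN cells, and that of all genes was -0.03, -0.04, 0.00 and -0.07. The 3 tumor replicates lay wholly apart from the 3 naive ones for 19 members in FRCs, 16 of them lower (39.5% of all genes, 20% lower). This held for 4 members in BECs (26%), for 7 in LECs, all of them lower (20.6%, 9.28% lower), and for 6 in DN cells, 5 of them lower (16%, 7.98% lower). Tests of the difference between 2 tumor changes called no member for FRCs minus BECs (0.93% of all genes, 8 members at an unadjusted limma p under 0.05), FRCs minus LECs (0.61%, 6 members) or BECs minus LECs (0.00762%, 3 members), and 1 for FRCs minus DN cells (2.78%, against 1.25%). With 3 replicates a side the smallest two-sided exact permutation p is 0.1, so single genes were tested in the model over all genes.

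**Figure D3:**
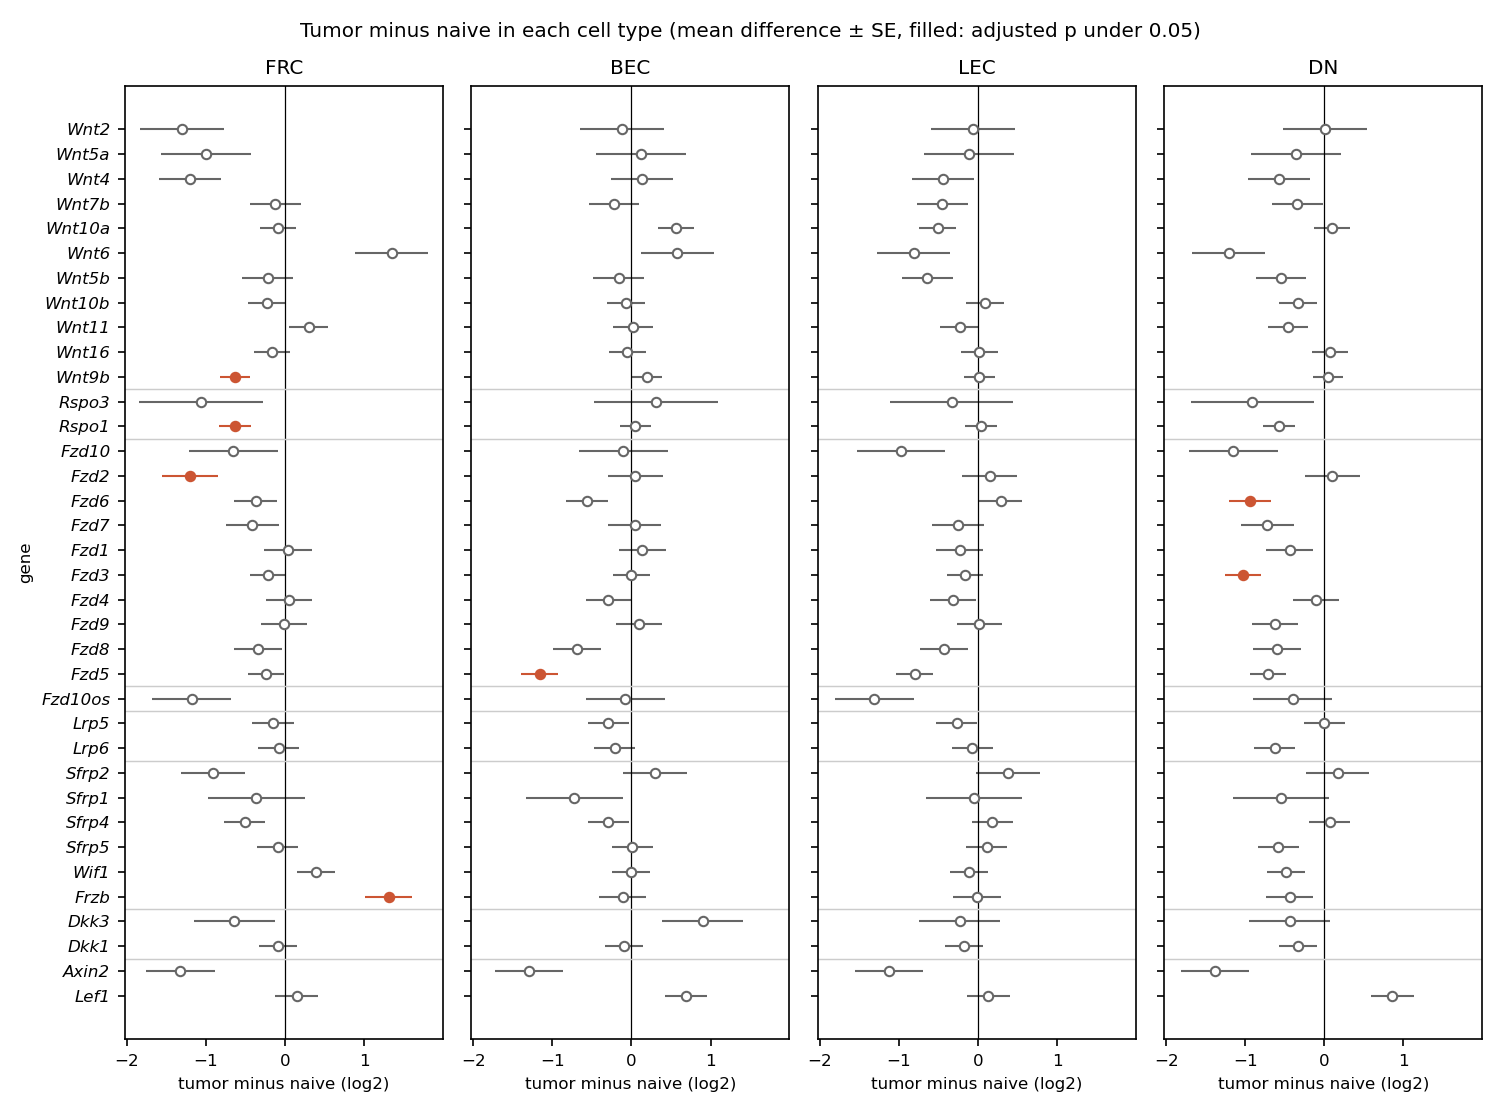
Tumor minus naive difference in log2 signal for the 36 tested Wnt genes in each cell type (points, with the standard error of the model as bars, 3 against 3 replicates), grouped by role in the order of the naive plot. Filled orange-red points passed an adjusted p of 0.05 (4 in FRCs, 1 in BECs, 0 in LECs, 2 in DN cells), and *Axin2* lies between -1.12 and -1.38 in all 4 panels.

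*Axin2* was lower with lymphoma in all 4 cell types, by a similar amount. In FRCs it read 10.01, 9.93 and 9.46 in naive and 8.29, 8.35 and 8.78 in tumor replicates. In LECs the values were 8.49, 8.77 and 8.73 against 7.61, 7.23 and 7.77, and in BECs 8.13, 8.45 and 8.11 against 6.92, 6.50 and 7.37. In DN cells they were 6.91, 9.30 and 6.98 against 6.02, 6.13 and 6.91. Naive and tumor replicates did not overlap in FRCs, BECs and LECs, and in DN cells the highest tumor replicate met the lowest naive one. The differences were -1.32 in FRCs, -1.30 in BECs, -1.12 in LECs and -1.38 in DN cells, each with an SE of 0.43, and none passed in its own cell type (limma adjusted p = 0.0556, 0.0881, 0.365 and 0.0576). The spread of *Axin2* was largest in naive DN cells (SD 1.36, against 0.15 to 0.48 elsewhere), and the model shares 1 spread over all groups. Without DN naive replicate 2 the same differences passed in FRCs, BECs and LECs (limma adjusted p = 0.00162, 0.00342 and 0.0263). In DN cells, leaving it out moved the difference to -0.59, and without both DN replicates with high FRC markers it was -0.87 (limma adjusted p = 0.0207).

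The mean of the 4 changes was computed in the same model after the 4 values of *Axin2* had been seen. *Axin2* fell by 1.28 on the log2 scale, 2.43-fold (SE 0.22, 95% interval -1.73 to -0.83, limma adjusted p = 0.00031), and it passed under each of 36 alternatives (adjusted p up to 0.00377). In the 4 pairs of cell types compared, differences in this change were between -0.20 and 0.05 with an SE of 0.61. BECs and LECs were not compared with DN cells in this way. The interval of FRCs minus DN cells ran from -1.22 to 1.33, so changes that differ by over 1 log2 unit cannot be told apart from equal ones here. The B cell marker sums given above overlapped between naive and tumor replicates in FRCs, BECs and LECs and not in DN cells. Those of 6 tested general leukocyte markers did not overlap in FRCs (11.06 to 11.78 against 12.28 to 13.47), LECs (12.60 to 12.88 against 12.89 to 13.20) or DN cells (12.37 to 12.76 against 13.16 to 15.87) and overlapped in BECs (12.59 to 12.84 against 12.58 to 15.35). In FRCs the sums of 7 tested myeloid markers did not overlap either (9.82 to 10.47 against 11.21 to 11.94). The part of leukocyte RNA in the *Axin2* values was not tested. By the mean of the 4 cell types 8 members passed, 1 higher and 7 lower, which is 22.2% against 23.6% of all genes (12.7% higher and 10.9% lower). Besides *Axin2*, the lower ones were *Fzd3*, *Fzd5*, *Fzd6*, *Fzd8*, *Fzd10os* and *Rspo1*, and *Lef1* was higher. *Rspo1* could be tested only because of its naive FRC mean, and *Lef1* only because of its means in tumor BECs and tumor DN cells. Their calls are therefore not independent of that selection. *Axin2*, *Fzd5* and *Fzd8* passed under all 36 alternatives, and each of the other 5 lost its call under at least 1. Of the tested members, 11 were lower in all 4 cell types (30.6%, against 18.4% of all genes) and 1 was higher in all of them (2.78%, against 16%), counting differences of any size.

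**Figure D4:**
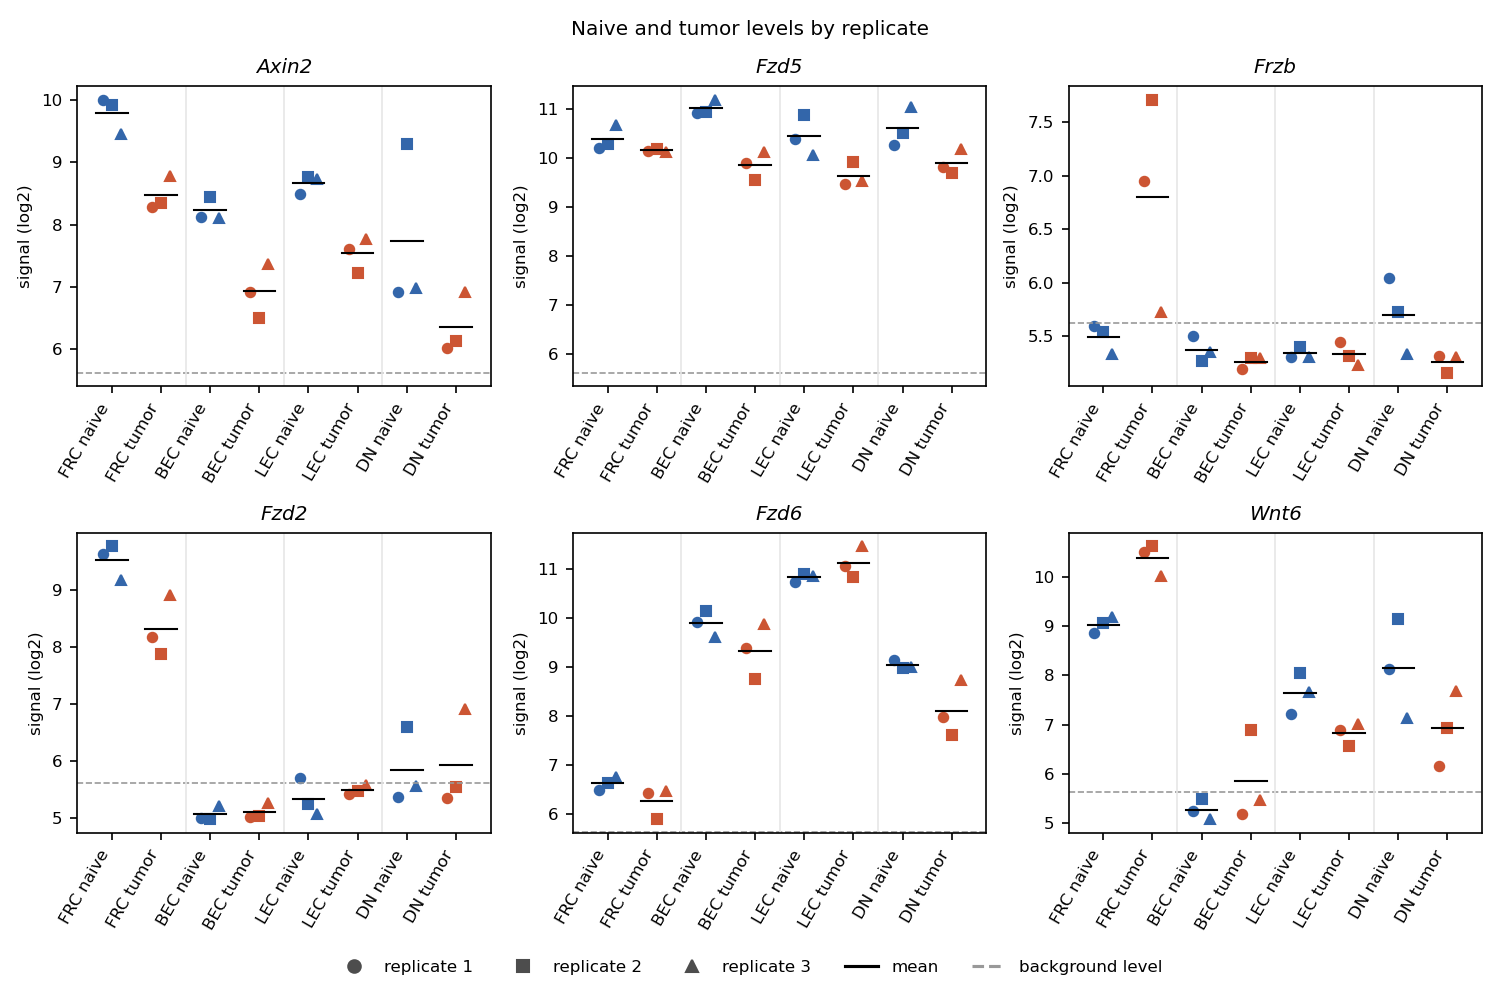
Log2 signal of 6 Wnt genes in each replicate of the 8 groups (blue naive, orange-red tumor, black line the mean of 3 replicates, dashed line the background level of 5.62). *Axin2* is lower with tumor in every cell type, and *Fzd5* is lower without overlap in every cell type, barely so in FRCs. *Frzb* exceeds background in all 3 replicates in tumor FRCs alone, and *Wnt6* is higher in tumor FRCs and lower in tumor LECs.

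*Fzd5*, a Frizzled receptor, was the member called in BECs. It read 10.93, 10.94 and 11.20 in naive and 9.91, 9.56 and 10.12 in tumor BECs, which do not overlap. The fall was 2.23-fold (difference -1.16, SE 0.23, limma adjusted p = 0.00501), and a second probe gave -1.15. It fell short of the threshold without BEC tumor replicate 2, which also carried the highest B cell marker sum of its group (difference -1.01, adjusted p = 0.0513). The same replicate had the highest *Pdpn* and *Pdgfra* of the tumor BECs. The sum of 9 tested pericyte and smooth muscle markers was 13.55 to 14.43 in naive and 14.70 to 15.16 in tumor BECs, and *Acta2*, smooth muscle actin, was higher by 1.26 (limma adjusted p = 0.032). The part of such cells in the *Fzd5* values was not tested. *Fzd5* was also lower without overlap in LECs (difference -0.80, adjusted p = 0.132) and DN cells (-0.71, adjusted p = 0.0625). In FRCs the groups were barely apart, at 10.22, 10.30 and 10.68 against 10.15, 10.20 and 10.14. The change in FRCs minus that in BECs was 0.92 (SE 0.32) and did not pass (limma adjusted p = 0.222). Averaged over the cell types *Fzd5* fell by 0.73 (SE 0.11, limma adjusted p = 0.00015). Another, dim probe moved by -0.47 in BECs. In FRCs the second probe moved by 0.11 and the dim one by 0.18, opposite in sign to the brightest.

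In FRCs the receptor called was *Fzd2*, at 9.63, 9.76 and 9.17 in naive and 8.18, 7.88 and 8.90 in tumor replicates. The groups did not overlap, although tumor replicate 3 came near them, and *Fzd2* fell 2.3-fold (difference -1.20, SE 0.35, limma adjusted p = 0.0333). Leaving out naive replicate 1 or 2 or tumor replicate 1 or 2 of the FRCs ended the call (adjusted p = 0.116, 0.122, 0.109 and 0.181). In the other cell types *Fzd2* was at or near background, and its changes did not differ from that in FRCs by the test (limma adjusted p = 0.231 to 0.32).

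*Fzd3* and *Fzd6* were called in DN cells. *Fzd3* read 5.75, 6.84 and 6.56 in naive DN cells and was not above background in the tumor replicates (5.55, 5.08 and 5.43), a fall of at least 1.7-fold (limma adjusted p = 0.01), with -0.33 and -0.45 by its other probes. *Fzd6*, linked to planar cell polarity, read 9.13, 8.98 and 9.0 against 7.98, 7.60 and 8.72 and fell 1.91-fold (difference -0.94, SE 0.27, limma adjusted p = 0.0426), with -0.79 by its second probe. Both calls ended without DN tumor replicate 2 (adjusted p = 0.0549 and 0.191), and the *Fzd6* call also ended when any of 13 other single replicates was left out (adjusted p = 0.0503 to 0.167). Without the 2 DN replicates with high FRC markers, 10 members were called in DN cells, 1 higher and 9 lower, which is 27.8% against 24.4% of all genes in that fit (11.7% higher and 12.7% lower). Of the 7 tested B cell markers, 5 rose in tumor DN cells. So did 3 of 10 blood endothelial markers, among them *Pecam1* (3.26) and *Cdh5* (2.45, limma adjusted p = 0.00884). The Schwann cell marker sum was 13.60 to 14.18 in naive and 12.06 to 13.39 in tumor DN cells, with none of the 3 markers called. The part of these cells in the lower *Fzd3* and *Fzd6* values was not tested.

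*Frzb*, which encodes a secreted Wnt antagonist, was the only member called higher with lymphoma within a cell type. It read 5.60, 5.54 and 5.33 in naive FRCs, all below background, and 6.95, 7.71 and 5.73 in tumor FRCs, all above it. Tumor replicate 3 stood just past the naive ones, and it was the tumor FRC replicate with the highest sums of B cell and T cell markers (10.12 and 9.83). The rise was at least 2.27-fold (difference 1.31, SE 0.3, limma adjusted p = 0.00926), and without tumor replicate 2 it was 0.85 (adjusted p = 0.0703). In no BEC, LEC or tumor DN replicate was *Frzb* above background, and naive DN replicates 1 and 2 read 6.04 and 5.73. The change in FRCs exceeded that in DN cells by 1.75 (SE 0.43, limma adjusted p = 0.0498), a call lost in 25 of 36 alternatives. Those over BECs and LECs, 1.42 and 1.32, did not pass (adjusted p = 0.138 and 0.196). *Frzb* could be tested only because its means in tumor FRCs (6.8) and naive DN cells (5.7) lay above background. High values in these groups raise the difference between FRCs and DN cells, so that call is not independent of the selection.

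The promoters of *Axin2*, *Fzd5* and *Frzb* are shown because these 3 genes carry the tumor comparison: the shared fall, the fall called in BECs and the rise in FRCs. The core of the TCF/LEF binding motif, CTTTGA on either strand, was searched in the 250 bases before annotated transcript starts (RefSeq, GRCm38.p6). It occurred in 6 of 28 windows of tested members (21.4%) and in 13.8% of all 32851 windows, and 14 tested members had no window. Capitals mark the motif, here read on the opposite strand as TCAAAG, and it lies in the *Frzb* window only. A match in these letters is a description of the sequence, and windows without it say nothing of the factor. In the order given, the genes lie at chr11:108917828-108950783, chr1:64730558-64737750 and chr2:80411970-80447396. The *Axin2* window precedes a start inside the annotated gene.
Axin2 (chr11:108920099-108920348, plus strand): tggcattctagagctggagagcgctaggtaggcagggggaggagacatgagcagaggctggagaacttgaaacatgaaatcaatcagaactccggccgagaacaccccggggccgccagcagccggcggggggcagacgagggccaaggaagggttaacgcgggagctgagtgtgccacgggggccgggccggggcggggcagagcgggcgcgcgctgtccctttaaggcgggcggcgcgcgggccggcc
Fzd5 (chr1:64737751-64738000, minus strand): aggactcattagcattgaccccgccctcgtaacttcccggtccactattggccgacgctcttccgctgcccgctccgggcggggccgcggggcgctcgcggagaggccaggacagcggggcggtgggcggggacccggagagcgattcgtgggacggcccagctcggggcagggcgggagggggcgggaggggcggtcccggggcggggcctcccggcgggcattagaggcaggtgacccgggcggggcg
Frzb (chr2:80447397-80447646, minus strand): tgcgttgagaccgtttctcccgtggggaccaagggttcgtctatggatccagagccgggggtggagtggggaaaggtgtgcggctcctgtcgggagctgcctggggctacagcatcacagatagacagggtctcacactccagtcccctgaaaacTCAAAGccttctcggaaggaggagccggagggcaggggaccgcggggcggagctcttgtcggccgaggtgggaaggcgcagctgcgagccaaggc

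*Wnt9b* and *Rspo1*, both near background, were the other members called in FRCs. Each could be tested only because its naive FRC mean lay above background, so its lower call there is not independent of that selection. Without a filter on dim probes the *Rspo1* call ended (limma adjusted p = 0.0549). *Rspo1* read 5.74, 6.27 and 6.02 in naive FRCs and 5.54, 5.14 and 5.46 in tumor FRCs, none of the latter above background, a fall of at least 1.31-fold (limma adjusted p = 0.0485). The call ended without any single FRC replicate (adjusted p = 0.0529 to 0.231) and under most other omissions. *Wnt9b* read 5.38, 5.34 and 6.13 against 5.10, 4.89 and 4.98 (difference -0.63, SE 0.19, limma adjusted p = 0.042). Only 1 of these 6 replicates was above background, so no fold is given.

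Brighter ligands of FRCs came close to the threshold without passing. *Wnt4* read 7.72, 7.92 and 8.39 in naive and 6.88, 6.37 and 7.19 in tumor FRCs (difference -1.20, SE 0.39, limma adjusted p = 0.0528). *Wnt6*, a ligand expressed in many epithelia, read 8.86, 9.06 and 9.19 against 10.51, 10.63 and 10.03 (1.35, SE 0.46, adjusted p = 0.0648). A second probe of *Wnt6* gave 1.40 and a dim one 0.48. This dim probe also differed from the brightest in sign between naive FRCs and naive LECs (-0.07 against 1.39). *Wnt6* was lower without overlap in tumor LECs (6.90, 6.57 and 7.02 against 7.21, 8.05 and 7.67), and its change in FRCs exceeded that in DN cells by 2.57 (SE 0.65, limma adjusted p = 0.055). *Wnt2* read 11.92, 11.99 and 11.73 against 10.47, 10.15 and 11.11 in FRCs (-1.30, adjusted p = 0.123), and in tumor LECs it stayed between 8.79 and 9.32. *Wnt5a* and *Rspo3* were also lower without overlap in tumor FRCs (-1.0 and -1.06), and neither passed (adjusted p = 0.293 and 0.435).

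*Lef1*, a transcription factor of the Wnt pathway that lymphocytes also express, was above background only in tumor BECs and tumor DN cells. In BECs it read 5.18, 5.15 and 5.27 in naive and 5.70, 6.56 and 5.39 in tumor replicates (difference 0.69, SE 0.27, limma adjusted p = 0.145). In DN cells it read 4.95, 4.78 and 4.83 against 6.31, 5.80 and 5.04 (0.86, SE 0.27, adjusted p = 0.053), and without DN tumor replicate 3 it passed (1.20, adjusted p = 0.00255). The B cell marker *Cd79b*, a subunit of the B cell receptor complex, read 11.79, 12.64 and 9.21 in the tumor BEC replicates and 13.41, 12.72 and 10.04 in the tumor DN replicates. Within both groups *Lef1* and *Cd79b* had the same order over the replicates. In FRCs and LECs, where *Cd79b* stayed at or below 9.90, *Lef1* did not exceed background. The sums of 4 tested T cell markers were 7.68, 9.23 and 7.86 in tumor BECs, within or below the naive range, and 11.36, 11.21 and 7.62 in tumor DN cells. The part of lymphocyte RNA in the *Lef1* values was not tested. Only tumor means let *Lef1* enter the test, so its rises are not independent of that selection.

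**Figure D5:**
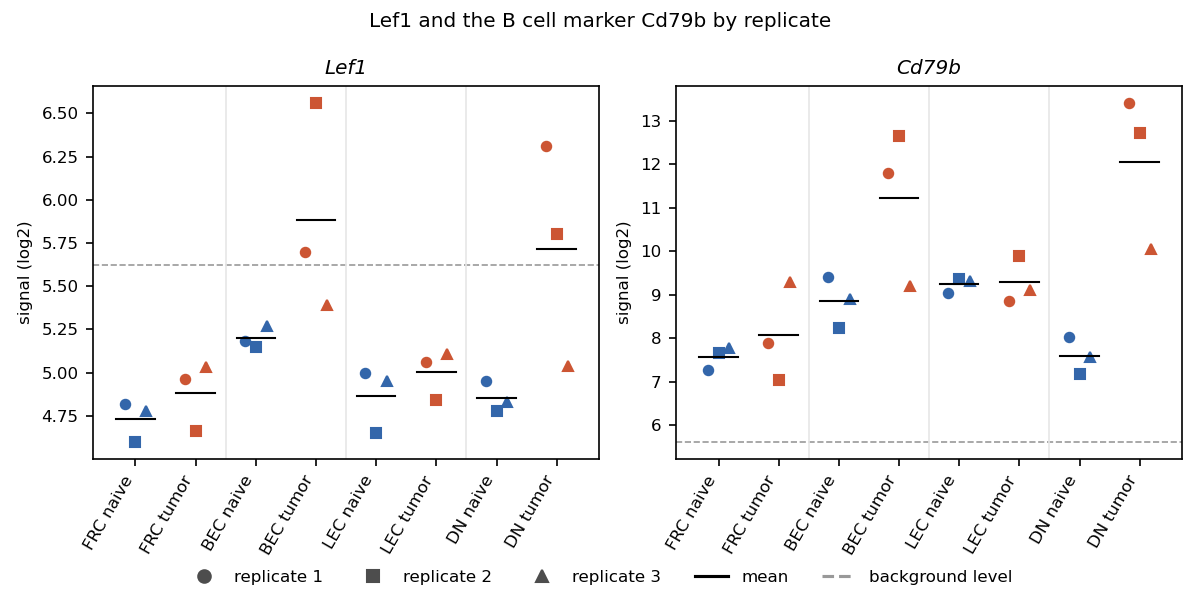
Log2 signal of *Lef1* and of the B cell marker *Cd79b* in each replicate of the 8 groups (blue naive, orange-red tumor, black line the mean of 3 replicates, dashed line the background level of 5.62). *Lef1* exceeds background in tumor BEC replicates 1 and 2 and tumor DN replicates 1 and 2, the same 4 libraries in which *Cd79b* is above 11.

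Other components of the pathway were followed in a list of 68 genes, of which 60 were tested. In FRCs 1 was higher and 3 lower with lymphoma (6.67%, against 10.5% of all genes). In BECs 1 was lower (1.67%, against 5.08% in both directions and 1.49% lower), and in DN cells 3 were lower (5%, against 7.39% and 2.61%). In LECs none passed, against 0.922% of all genes, with 3 at an unadjusted limma p under 0.05. With both directions counted together, each share was below that of all genes. *Ccnd1*, a cell cycle gene and TCF/LEF target in several tissues, rose in FRCs from 12.35, 12.09 and 13.18 to 13.91, 14.00 and 14.17 (1.49, limma adjusted p = 0.00094). *Tle2*, a corepressor that binds TCF/LEF factors, fell in FRCs from 8.45, 9.15 and 9.59 to 7.63, 7.35 and 8.22 and in BECs from 8.98, 9.26 and 8.95 to 7.14, 7.22 and 8.52. *Gpc6*, which encodes a cell-surface proteoglycan, fell in FRCs (8.40, 8.17 and 9.16 against 6.63, 7.24 and 8.15), as did *Notum*, a secreted enzyme that inactivates Wnt, from 7.23, 7.45 and 5.46 to 5.74, 5.69 and 5.33, where the groups overlapped. *Sostdc1*, a secreted antagonist of BMP and Wnt, read 9.05, 11.38 and 9.11 in naive and 6.01, 7.70 and 9.06 in tumor DN cells, nearly meeting at their edges (difference -2.26, limma adjusted p = 0.0224). Also lower in DN cells were *Daam1*, a formin of the planar polarity branch, and *Gpc4*. The median change of the 60 genes was -0.25 in FRCs, -0.13 in BECs, -0.10 in LECs and -0.30 in DN cells, each below the median of all genes given above.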

How the data were processed

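The authors deposited a table of log2 values for 45281 probes on 48 strips and, per the file headers, the intensity of every bead. How the log2 values were background-corrected and normalized is not given in the sources used here. Here the strips were quantile normalized and both strips of each replicate averaged. Background values peaked at 5.04 (robust SD 0.19), and the cutoff for signal was placed 3 such SDs higher, at 5.62. A probe was kept if a group mean exceeded it, and the brightest kept probe stood for its gene (13119 genes). Where no replicate of the dimmer group was above the level, the fold is "at least" that against the level. All comparisons came from 1 limma 3.58.1 model (R 4.3.3) of the 8 group means with empirical Bayes, with Benjamini-Hochberg adjustment over all genes, and scripts were tested on simulated data. The methods' t-test is the test the study names, run per gene as an alternative, beside other normalizations, filters, strips, probe rules, array weights, bead-level values, a replicate block and single replicates left out. Bead codes were linked to 45160 probes by their values for the alternatives (Python 3.11.15, scikit-learn 1.9.0). Named genes are members called with lymphoma, up to 4 members per role with the widest naive range, *Axin2* and *Lef1*, members whose probes disagree in sign, and up to 3 other pathway genes per cell type; others were chosen after their values were seen. The members and gene lists were chosen with earlier results of these data known. Promoters came from RefSeq (GRCm38.p6).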

Additional observations from a re-analysis of the deposited data

Results flagged for a closer look

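The change of *Frzb* with lymphoma passed a test of the difference between FRCs and DN cells just under the threshold. It was higher by 1.75 on the log2 scale in FRCs than in DN cells (SE 0.43, limma adjusted p = 0.0498, all 3 tumor FRC replicates above the naive ones). The adjusted p ranged from 0.000118 to 0.497 over 36 alternatives, 25 of which ended the call. It was 0.0525 on values as deposited, 0.0562 with strips centred on their medians, 0.0593 without a filter on dim probes and 0.0751 with the replicate number as a block. Without FRC tumor replicate 2 the difference was 1.29 (adjusted p = 0.118). The means of *Frzb* in naive FRCs (5.49) and tumor DN cells (5.26) were not above background. Only those in tumor FRCs (6.8) and naive DN cells (5.7) were. *Frzb* could thus be tested only through groups whose high values raise this difference, so the call is not independent of the filter.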

How the results depend on the processing

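The naive comparisons of cell types kept their counts within 1.5 times under every alternative run. Counts of members called with lymphoma did not, as follows, for FRCs, BECs, LECs and DN cells in turn where 4 values stand together and otherwise as named (4, 1, 0 and 2 as reported). Array weights, whose estimation stopped before it converged, gave 15, 6, 3 and 8, and the fit of 1 cell type alone gave 8, 0, 1 and 0. The unadjusted t-test gave 13, 2 and 4 in FRCs, BECs and LECs, and the adjusted one 0 in each cell type. Strip 1 alone gave 0 and strip 2 alone 1 in FRCs. In DN cells 1 was called without a filter on dim probes and by either bead-file setting. Leaving out 1 replicate gave 0 to 9, 0 to 3, 0 to 1 and 0 to 11. The 0 in FRCs came without FRC tumor replicate 2, the 9 without DN naive replicate 2 and the 7 without DN tumor replicate 3. Without FRC naive replicate 1 or FRC tumor replicate 1 it was 1, and 2 without FRC naive replicate 2 or 3, BEC naive replicate 3, BEC tumor replicate 1, LEC naive replicate 2 or LEC tumor replicate 2. In BECs the 0 came without BEC tumor replicate 2, the 3 without BEC tumor replicate 3 and 2 without DN naive replicate 2, which also gave the 1 in LECs. In DN cells the 11 came without DN tumor replicate 3, 5 without DN naive replicate 2, 4 without DN naive replicate 1 or 3 and the 0 without DN tumor replicate 2. Without both DN replicates with high FRC markers, an alternative chosen after seeing the data, the counts were 12, 2, 1 and 10. These are 33.3%, 5.56%, 2.78% and 27.8% of members, against 19%, 11.3%, 1.73% and 24.4% of all genes in that fit. For the other alternatives in this section no share of all genes is given. Their counts therefore do not show whether the Wnt genes moved more than all genes did.

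For differences between tumor changes, array weights gave 10 for FRCs minus BECs, 5 for FRCs minus LECs and 6 for FRCs minus DN cells, and leaving out both DN replicates gave 3, 2 and 5. FRCs minus DN cells had 1 call, which became 0 on values as deposited, with strips centred on their medians, on strip 1 alone and without a filter, and 2 with the mean of all probes or either bead-file setting. Leaving out 1 replicate gave 0 to 1 for FRCs minus BECs, 0 to 1 for FRCs minus LECs and 0 to 3 for FRCs minus DN cells. For the mean of the 4 cell types (8 members), strip 1 alone and no filter gave 5, array weights 18, leaving out both DN replicates 14 and leaving out 1 replicate 4 to 12.

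For the other pathway genes (4, 1, 0 and 3), array weights gave 33, 13, 2 and 8, the fit of 1 cell type alone 12 in FRCs and 0 in BECs and DN cells, the adjusted t-test 0 in FRCs, BECs and DN cells, the unadjusted one 24, 7 and 3 in FRCs, BECs and LECs, and leaving out both DN replicates 12, 5, 1 and 11. The mean of all probes gave 8 in FRCs and 3 in BECs, bead files without background correction 7 and 3, normexp 2 in BECs and strip 2 alone 0 in BECs. Leaving out 1 replicate gave 1 to 8, 0 to 3, 0 to 1 and 0 to 8. Without DN tumor replicate 3 it was 8, 3, 0 and 8.

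Tumor and naive replicates were also matched by number, and their deviations were correlated. The correlations were 0.20, 0.23 and 0.15 in LECs and 0.25, 0.03 and 0.09 in FRCs. They were 0.04, -0.17 and -0.22 in BECs and -0.04, -0.19 and -0.02 in DN cells. No test of them is given, so they do not show in which cell types a shared number is more than a label. With the replicate number as a block, 2, 1, 0 and 1 members were called, 0 for FRCs minus DN cells, 5 for the mean of the 4 cell types and 1 other pathway gene in DN cells. No named member reversed under any alternative: of 897 refits of named changes, 676 kept their side of the threshold, 189 lost it and 32 gained it. Dim members near the background level, such as *Wnt9b*, *Rspo1* and *Lef1*, leave small changes out of reach.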
